A study of Mus musculus with 12 samples.

Results

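Dgki, Slc9a3, Atp2b2, Wdr72 and Gria3 are 5 membrane, transport and signalling genes better known from neurons and epithelia than from heart muscle. Their RNA was counted in the left ventricle of mice that lack the RNA helicase Ddx5 in cardiomyocytes. The 5 genes were picked from earlier results of the same libraries, because their counts were low in the CTR1 controls and higher in the mCKO knockouts, and not all of them were higher in iCKO. They are 5 of the 17912 genes listed in either count table, and all 5 stand in both tables. The levels that chose them are given as a description, without a test.

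The study had 4 groups of 3 libraries, all from male left ventricle. The mCKO mice were DDX5fl/fl MYH6Cre+ and 8 weeks old, untreated, with floxed Ddx5 cut by a constitutive Cre under the cardiomyocyte promoter Myh6. Their CTR1 controls were Ddx5flox/flox mice of the same age without treatment. The iCKO mice were Ddx5flox/flox Myh6MerCreMer, in which tamoxifen switches on the Cre. They received tamoxifen into the peritoneum at 20 mg/kg/day for 5 days per the treatment label, while the design text speaks of 7 days. The CTR2 controls were Ddx5flox/flox mice given the same tamoxifen. The ages of iCKO and CTR2 are not stated beyond being matched. All 4 groups carry the floxed Ddx5 allele, and the labels name no Cre in either control group, so Cre itself and loss of Ddx5 cannot be told apart. Nor can the time since deletion, the form of Cre and tamoxifen be told apart in a comparison of mCKO with iCKO.

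The labels do not say what separates the 3 libraries of a group, so p-values measure the spread between these libraries. Library totals lay between 19682268 and 25871882 counts, and 3 counts, the limit that a count of 0 allows, equal 0.106 to 0.157 CPM (counts relative to the library's total, scaled by TMM). Such limits cover counting error only. Ddx5 averaged 228 ± 8.38 CPM in mCKO and 556 ± 138 CPM in CTR1, and 209 ± 14.8 CPM in iCKO against 620 ± 68.2 CPM in CTR2 (SD, n = 3 each). Its log2 fold change was -1.29 ± 0.20 (standard error) in mCKO against CTR1, with a Benjamini-Hochberg adjusted p of 0.17 by edgeR's quasi-likelihood test. With the replicate number as a block it was -1.26 ± 0.12 (adjusted p = 0.0019), and in iCKO against CTR2 it was -1.57 ± 0.15 (adjusted p = 0.00017). Replicate 3 stood apart from replicates 1 and 2 in both groups of that experiment, with a chi-square per degree of freedom of 112 and 126 in mCKO and 82.5 and 87.4 in CTR1, where replicates 1 and 2 gave 9.52 in mCKO and 6.49 in CTR1. In iCKO replicate 3 also stood apart, at 146 and 112, against 23.4 between replicates 1 and 2. In CTR2 replicate 2 did, at 50.6 and 38.2, against 11.4 between replicates 1 and 3. The level of each of the 5 genes was lowest in iCKO in replicate 3. CTR1 replicate 3 had the lowest Ddx5 of its group, at 397 CPM.

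Each gene has a known role outside the heart. Dgki encodes diacylglycerol kinase iota, which turns the second messenger diacylglycerol into phosphatidic acid and thereby limits signalling by protein kinase C. Slc9a3 encodes the sodium-proton exchanger of the apical membrane of kidney tubule and gut epithelium. Atp2b2 encodes a plasma membrane calcium pump of neurons and of the hair cells of the inner ear. Wdr72 encodes a WD repeat protein needed by enamel-forming ameloblasts and is linked to acid transport in the kidney. Gria3 encodes a subunit of the AMPA-type glutamate receptor, the main fast excitatory receptor of the brain. In the gene ontology terms of the deposited tables, Dgki, Atp2b2 and Gria3 share the term glutamatergic synapse, which 3.01% of 12769 annotated genes tested in mCKO against CTR1 carry. Slc9a3, Atp2b2 and Gria3 share PDZ domain binding, carried by 0.728% of these genes, and Slc9a3 and Atp2b2 share apical plasma membrane, carried by 1.81%.

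The genes lie on 4 chromosomes and are, apart from Slc9a3, long. In GENCODE M21 on GRCm38, Dgki spans 454.163 kb on the minus strand of chr6:36846022-37300184, and Atp2b2 spans 298.783 kb on the same strand at chr6:113743831-114042613. Slc9a3 spans 47.986 kb at chr13:74121457-74169442, Wdr72 172.953 kb at chr9:74110356-74283308 and Gria3 277.748 kb at chrX:41400854-41678601, all 3 on the plus strand. The median span of 13251 tested genes with an annotation was 24.874 kb. Of those genes 98.8% were shorter than Dgki, 97.2% shorter than Atp2b2, 96.9% shorter than Gria3, 93.5% shorter than Wdr72 and 69.8% shorter than Slc9a3. Exons of the 5 genes overlapped no gene of the count tables. The one exonic overlap was of Gria3 with the miRNA gene Gm22413, over 85 bases or 0.862% of the exonic length.

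RefSeq start-site windows (GRCm38.p6) matched Dgki, Slc9a3 and Atp2b2, while Wdr72 and Gria3 had no entry. The windows are shown because their genes were all chosen as higher in mCKO than in CTR1. Only the stretch that lies outside annotated exons is printed, 5′ to 3′ on the gene's own strand. Capitals mark matches, on either strand, to any of 6 motifs. These were the TATA box with the letters TATAAA, the CCAAT box as its name spells it, and the GC box with the letters GGGCGG. The others were the E-box with the letters CANNTG, the AP-1 site with the letters TGANTCA and the muscle MCAT element with the letters CATTCC. The stretch of Slc9a3 is 250 bases at chr13:74121163-74121412 (plus strand), that of Atp2b2 is 112 bases at chr6:114042081-114042192 (minus strand, the first of 3 start sites) and that of Dgki is 42 bases at chr6:37300185-37300226 (minus strand).
Slc9a3: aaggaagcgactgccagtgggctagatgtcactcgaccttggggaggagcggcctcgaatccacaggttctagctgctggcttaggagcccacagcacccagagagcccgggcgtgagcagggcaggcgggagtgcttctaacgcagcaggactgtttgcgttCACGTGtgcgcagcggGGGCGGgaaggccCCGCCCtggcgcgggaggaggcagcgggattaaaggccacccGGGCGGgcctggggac
Atp2b2: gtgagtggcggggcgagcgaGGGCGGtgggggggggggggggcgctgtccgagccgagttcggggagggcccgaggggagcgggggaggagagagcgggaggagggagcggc
Dgki: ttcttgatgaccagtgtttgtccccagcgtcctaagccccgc

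In their full windows of 300 bases, Slc9a3 and the first start site of Atp2b2 each held 3 GC boxes and 1 E-box, Atp2b2 also held 1 MCAT element, and Dgki held 2 CCAAT boxes. None of these 3 windows held TATAAA. Over 32851 RefSeq windows of that length, a GC box occurred in 35.7%, an E-box in 72.3%, a CCAAT box in 37.4%, an MCAT element in 14.7%, a TATA box in 13.6% and an AP-1 site in 7.81%. No motif of the 6 was present in all 3 windows. A match describes letters only and is no evidence of binding.

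Dgki, the lipid kinase, had the highest fitted fold change of 13353 genes tested in mCKO against CTR1, a value that served to choose it. Without the filter on low counts Dgki ranked 64 of 17260 genes. Its level was 4.42, 4.07 and 5.33 CPM in the mCKO libraries, against 0.489, 0.209 and 0.417 CPM in CTR1. It was 0.146, 0.282 and 0.0745 CPM in iCKO, against 0.506, 1.04 and 0.204 CPM in CTR2. All 3 mCKO libraries lay above every other library, while iCKO, with 4, 8 and 2 counts, overlapped CTR2, with 10, 22 and 4 counts. The mCKO mean of 4.61 ± 0.65 CPM was 12.4 times the CTR1 mean of 0.372 ± 0.146 CPM (SD, n = 3 each), and the fitted log2 fold change was 3.60 ± 0.33. In iCKO against CTR2 Dgki failed the filter on low counts, and without that filter its log2 fold change was -1.78 ± 0.72.

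Slc9a3, the exchanger, had the highest level of the 5 genes per kb of exon, at 4.0 ± 1.61 CPM per kb in mCKO and 0.453 ± 0.276 CPM per kb in CTR1 (SD, n = 3 each). The other 4 averaged between 0.567 (Atp2b2) and 0.976 (Gria3) CPM per kb in mCKO. Its level was 14.6, 31.9 and 19.6 CPM in mCKO, against 2.84, 3.81 and 0.834 CPM in CTR1. It was 2.05, 2.36 and 1.16 CPM in iCKO, against 2.53, 0.471 and 2.96 CPM in CTR2. The mCKO libraries did not overlap any other group, and the other 9 libraries all lay below 4 CPM in overlapping ranges. The log2 fold change was 3.15 ± 0.55 in mCKO against CTR1, the third highest of the genes tested. In iCKO against CTR2 it was -0.09 ± 0.57, and its sign turned with the library left out, to -0.56 without CTR2 replicate 2 and 0.31 without CTR2 replicate 3. With library sizes alone in place of TMM it was 0.12, where the median of all genes was 0.24.

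Atp2b2, the calcium pump, had 6.48, 8.70 and 6.26 CPM in mCKO, against 1.03, 1.88 and 0.278 CPM in CTR1. It had 0.146, 0.352 and 0.0745 CPM in iCKO, from 4, 10 and 2 counts, against 0.810, 0.188 and 0.969 CPM in CTR2. The mCKO libraries again stood alone, and the lowest CTR2 library lay within the range of iCKO. The log2 fold change was 2.76 ± 0.56 in mCKO against CTR1 and, in the unfiltered fit of a gene that failed the filter, -1.74 ± 0.73 in iCKO against CTR2. Without iCKO replicate 2 the iCKO value was -2.50. Without CTR1 replicate 2 the mCKO value was 3.45, and without CTR1 replicate 3 it was 2.30. On the log2 CPM scale, CTR1 replicate 3 differed from the mean of replicates 1 and 2 by -2.0 for Atp2b2 and by -1.87 for Slc9a3.

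Wdr72 was the gene of the 5 whose 2 knockouts lay on opposite sides of their controls without overlap. Its level was 6.35, 4.83 and 3.95 CPM in mCKO, against 1.08, 0.940 and 0.695 CPM in CTR1. It was 0.329, 0.458 and 0.186 CPM in iCKO, against 1.16, 0.800 and 0.918 CPM in CTR2. Every mCKO library was above, and every iCKO library below, each library of both control groups. The log2 fold change was 2.47 ± 0.29 in mCKO against CTR1 and -1.54 ± 0.42 in iCKO against CTR2. The iCKO values rest on 9, 13 and 5 counts.

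Gria3, the glutamate receptor subunit, had 8.63, 13.5 and 6.76 CPM in mCKO, against 1.81, 2.35 and 1.11 CPM in CTR1. It had 2.63, 2.96 and 1.75 CPM in iCKO, against 2.07, 2.40 and 2.30 CPM in CTR2. The mCKO libraries did not overlap the others, and iCKO spanned the whole CTR2 range. The log2 fold change was 2.45 ± 0.37 in mCKO against CTR1 and 0.12 ± 0.28 in iCKO against CTR2.

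**Figure D1:**
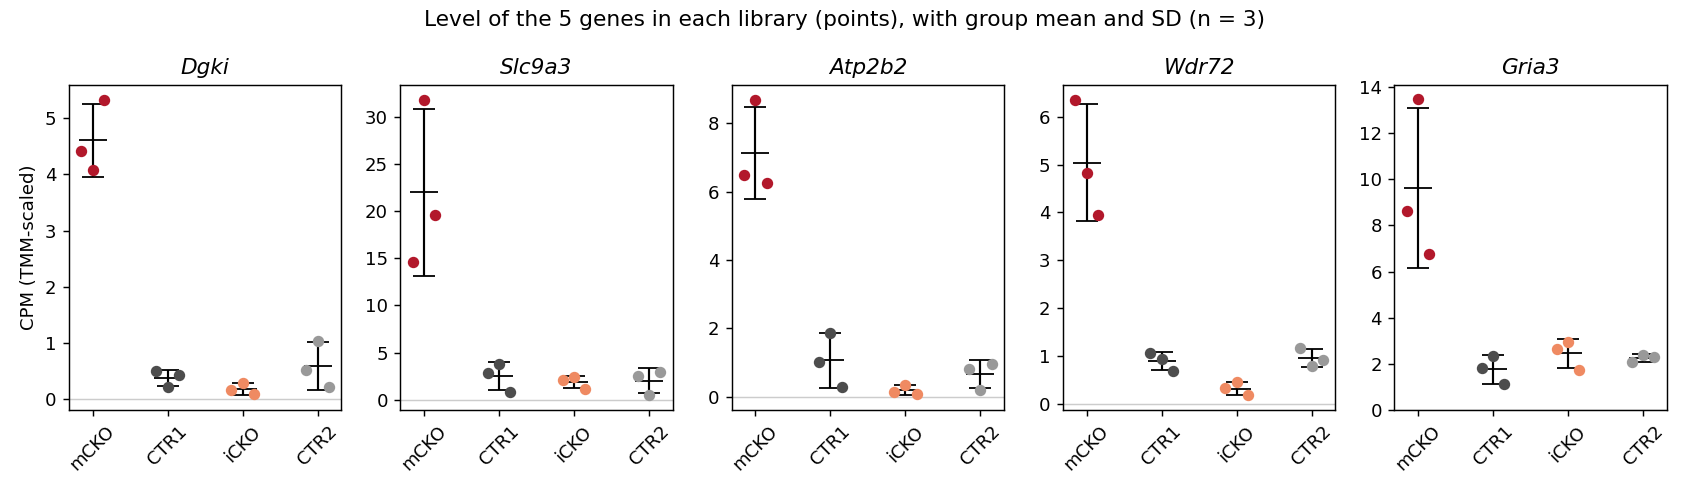
Level of each of the 5 genes in every library (points, TMM-scaled CPM, linear axis that includes 0, with a scale of its own in each panel), with the group mean and SD (n = 3). In each panel the 3 mCKO libraries lie above the other 9, for example at 4.07 to 5.33 CPM for Dgki, where CTR2 reaches 1.04 CPM.

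All 5 genes thus separated mCKO from CTR1, which is how they were chosen; of the 13353 genes tested, 7.69% were higher in mCKO and 7.3% lower without overlap. Dgki, Slc9a3, Atp2b2, Wdr72 and Gria3 ranked 1, 3, 6, 8 and 10 from the highest fold change, which restates the choice. In the same order they ranked 64, 131, 233, 456 and 461 of 17260 genes without the filter on low counts. Without CTR1 replicate 3 they ranked 3, 19, 37, 36 and 48 of 13510. The description near zero in CTR1 held only in part, since the CTR1 mean was below 1 CPM for Dgki and Wdr72 (0.904 CPM), and was 1.06 CPM for Atp2b2, 1.76 CPM for Gria3 and 2.49 CPM for Slc9a3. In iCKO none of the 5 was separated above CTR2, where 31.9% of 13548 genes were, and Wdr72 was separated below it, where 27% were. The order of the group means put mCKO first for each gene. After it came CTR2, CTR1 and iCKO for Dgki and Wdr72, CTR1, CTR2 and iCKO for Slc9a3 and Atp2b2, and iCKO, CTR2 and CTR1 for Gria3. Neighbours below mCKO in these orders overlapped in range, apart from CTR1 and iCKO for Wdr72; levels across the experiments were scaled in separate tables.

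The difference between the mCKO and the iCKO effect, fitted over all 12 libraries, was 5.41 ± 0.79 for Dgki, 4.52 ± 0.96 for Atp2b2, 4.06 ± 0.50 for Wdr72, 3.28 ± 0.84 for Slc9a3 and 2.38 ± 0.46 for Gria3 on the log2 scale. The choice of genes used these values too, and they are not tested. They varied with single libraries, the Dgki value being 4.64 without CTR2 replicate 2 and 5.95 without iCKO replicate 2, and the Atp2b2 value 5.25 without iCKO replicate 2. Same-numbered mCKO and CTR1 libraries differed by 2.25 to 2.46 on the log2 CPM scale for Wdr72 and by 2.20 to 2.51 for Gria3. For Dgki they differed by 2.95 to 3.78. The range was wider for Slc9a3, at 2.33 to 4.4, and for Atp2b2, at 2.15 to 4.09, with the largest difference in replicate 3 in both.

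Relatives in the same gene families were measured too; the 5 genes were chosen for their fold change in mCKO, so that relatives lie below them is no finding. Of 9 other diacylglycerol kinase genes, 8 were tested in mCKO against CTR1, with log2 fold changes of -0.42 (Dgke) to 0.08 (Dgkh). Dgki made up 1.82 ± 0.65% of the family's summed CPM per kb in mCKO and 0.129 ± 0.063% in CTR1, since Dgka, Dgkd and Dgkz held most of it. The highest log2 fold change among the other Slc9a genes tested was 0.62 (Slc9a9). The 3 other plasma membrane calcium pumps had log2 fold changes of -0.11 (Atp2b1) to 0.58 (Atp2b3), and Atp2b2 held 6.17 ± 1.23% of that family's CPM per kb in mCKO and 0.989 ± 0.736% in CTR1.

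Among the AMPA receptor genes, Gria3 was the main one in all 4 groups, with 92.8 ± 5.78% of the summed CPM per kb in mCKO, 81.6 ± 3.37% in CTR1, 85.6 ± 2.30% in iCKO and 83.0 ± 11% in CTR2. Gria1, Gria2 and Gria4 failed the filter on low counts in both experiments, with 22, 1 and 5 counts in all 3 mCKO libraries together, against 12, 1 and 3 counts in CTR1.

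**Figure D2:**
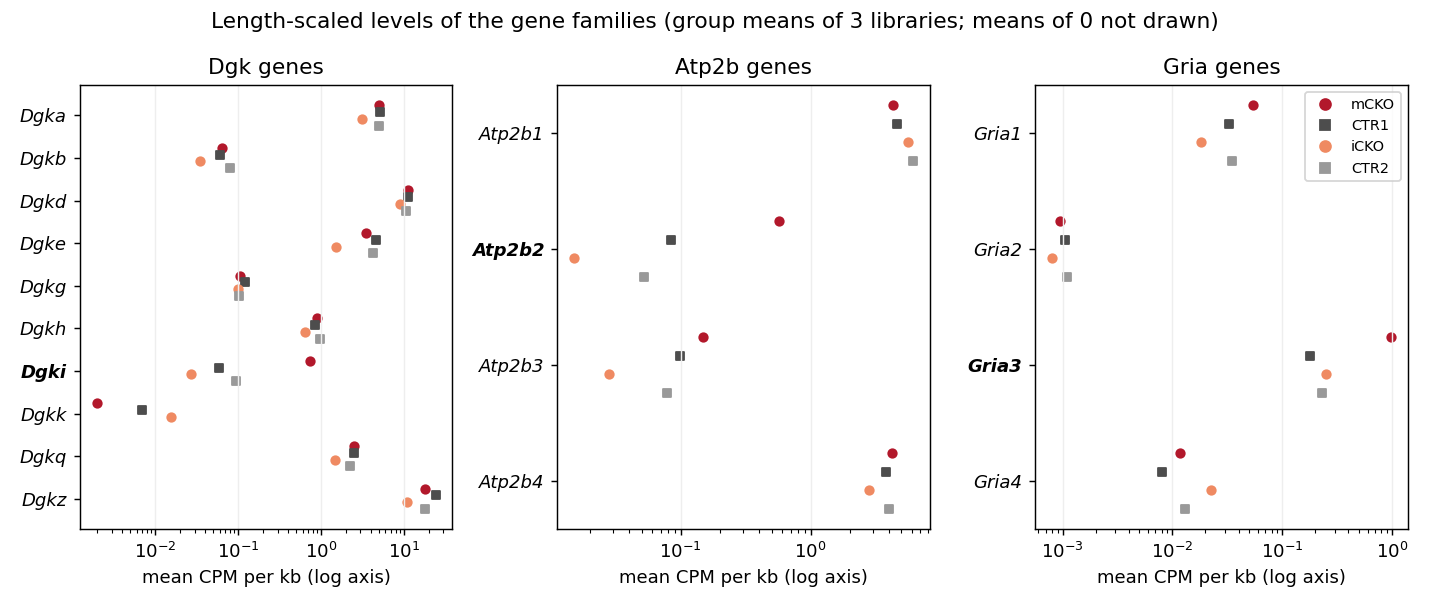
Mean CPM per kb of exon (log axis, n = 3 libraries) of the Dgk, Atp2b and Gria genes in mCKO, CTR1, iCKO and CTR2, with means of 0 not drawn. Dgki, Atp2b2 and Gria3, in bold, show mCKO to the right of the other groups, for example Gria3 at 0.976 CPM per kb in mCKO and 0.178 CPM per kb in CTR1.

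Lists of related genes, with the 5 genes themselves left out, gave measures that had not chosen them, though the lists too were drawn up with earlier results known. Without the replicate block edgeR called none of these genes in mCKO against CTR1, as it called 0% of all genes there (1164 of 13353 had an unadjusted p below 0.05, and DESeq2 called 310). With the block it called 13.8% of all genes, 7.32% higher and 6.45% lower, around a median log2 fold change of 0.0048. In iCKO against CTR2 edgeR called 44.8% of 13548 genes, 25.2% higher and 19.5% lower, around a median of 0.028. In the difference between the 2 effects it called 20.8% of 13871 genes, 11% higher in mCKO and 9.88% lower. The scaling moved these splits: with library sizes alone 76.9% of the block calls in mCKO were higher, against 53.2% with TMM, 71.5% of the iCKO calls, against 56.4%, and 34.0% of the calls for the difference, against 52.6%. It moved the median of all genes to 0.24 in iCKO and to -0.14 in the difference, and turned the direction of none of the list genes named below.

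Among diacylglycerol kinases and protein kinase C genes, 4 of 17 were higher and 2 lower in mCKO against CTR1 with the block, and the median log2 fold change was 0.022. All 4 that were higher encode protein kinase C isoforms and both that were lower, Dgke and Dgkz, encode diacylglycerol kinases. Prkcq, which encodes protein kinase C theta, known from T cells and skeletal muscle, had 21.2, 12 and 15.7 CPM in mCKO, against 3.96, 5.59 and 4.13 CPM in CTR1. In iCKO it had 3.14, 3.03 and 2.80 CPM, against 4.81, 6.03 and 7.75 CPM in CTR2. Neither pair of groups overlapped, and Prkcq lay above its control in mCKO and below it in iCKO, as Wdr72 did. Its log2 fold change was 1.82 ± 0.24 in mCKO with the block (edgeR adjusted p = 0.0052, and 0.13 without the block) and -1.05 ± 0.24 in iCKO (adjusted p = 0.0076). The difference of the 2 effects was 2.93 ± 0.35 (adjusted p = 0.00026).

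Prkcd, another isoform, was higher in both, by 0.66 ± 0.07 on the log2 scale in mCKO with the block (edgeR adjusted p = 0.00035) and by 0.53 ± 0.16 in iCKO (adjusted p = 0.026). Dgke, a kinase that prefers arachidonate-containing diacylglycerol, was lower in both, with log2 fold changes of -0.41 ± 0.08 in mCKO with the block (edgeR adjusted p = 0.0063) and -1.49 ± 0.26 in iCKO (adjusted p = 0.0022). Dgkz was also lower in both, at -0.39 ± 0.07 (block, adjusted p = 0.0045) and -0.72 ± 0.14 (adjusted p = 0.0044). In iCKO 2 genes of the list were higher and 4 lower of 17, with a median of -0.52, where DESeq2 called 2 higher and 8 lower. Without the block DESeq2 called Prkcq and Prkcd higher in mCKO.

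Of the sodium-proton exchangers and their partners, 1 of 12 was higher in mCKO with the block and none lower, with a median log2 fold change of 0.037. It was Slc9a9, an endosomal exchanger, with 0.61 ± 0.14 (edgeR adjusted p = 0.015 with the block) and 0.88 ± 0.27 in iCKO (adjusted p = 0.027). The iCKO call was lost without iCKO replicate 2 (0.71), CTR2 replicate 2 (0.72) or CTR2 replicate 3 (0.83), each a log2 fold change. In iCKO 3 of 13 were higher and 2 lower, with a median of 0.00040. The scaffold gene Slc9a3r1, whose protein anchors the Slc9a3 exchanger through PDZ domains, was higher in iCKO, with a log2 fold change of 1.24 ± 0.29 (adjusted p = 0.0096). Slc9a3r2 was lower in iCKO, at -0.94 ± 0.14 (edgeR adjusted p = 0.0011), and was 0.05 ± 0.06 in mCKO with the block (adjusted p = 0.68). Slc9a7, an exchanger of the Golgi, was higher in iCKO by 1.14 ± 0.24 (adjusted p = 0.0058).

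Of the calcium pumps, exchangers and pump subunits, none of 12 was higher in mCKO with the block and 2 were lower, with a median log2 fold change of -0.14. These were Atp2a2, the calcium pump of the cardiac sarcoplasmic reticulum, at -0.42 ± 0.06 (edgeR adjusted p = 0.0017), and the sodium-calcium exchanger Slc8a1, at -0.35 ± 0.07 (adjusted p = 0.011). In iCKO 1 of 11 was higher and 6 lower, with a median of -0.53, among them Atp2a2 at -1.88 ± 0.22 (adjusted p = 0.00041), its inhibitor Pln at -1.94 ± 0.14 (adjusted p = 6.1e-05) and Bsg, a chaperone subunit of plasma membrane calcium pumps, at -1.15 ± 0.15 (adjusted p = 0.00057). Atp2a1, the sarcoplasmic reticulum pump of fast skeletal muscle, was picked out after its values were seen. It had 7.75, 2.86 and 4.54 CPM in mCKO against 0.734, 2.09 and 0.927 CPM in CTR1, with a log2 fold change of 2.02 ± 0.53 that was not called by edgeR (adjusted p = 0.31, and 0.11 with the block). DESeq2 called it higher (adjusted p = 0.015), its only call in the list in mCKO. In iCKO it was lower, at -1.49 ± 0.44 (adjusted p = 0.024), and the difference of the 2 effects was 3.55 ± 0.72 (adjusted p = 0.0055). Its iCKO call was lost without iCKO replicate 1 (-1.30), CTR2 replicate 1 (-1.43) or CTR2 replicate 3 (-1.23).

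Of Wdr72's relatives and the subunits of the vesicular proton pump, 3 of 12 were higher in mCKO with the block and none lower, with a median log2 fold change of 0.020. Tcirg1, a membrane subunit of the pump, was higher in mCKO by 0.37 ± 0.08 (edgeR adjusted p = 0.015 with the block) and in iCKO by 0.93 ± 0.14 (adjusted p = 0.0012). Rogdi and Dmxl2, whose proteins belong to an assembly complex of the pump, were higher in mCKO with the block, by 0.34 ± 0.09 (adjusted p = 0.034) and 0.28 ± 0.08 (adjusted p = 0.038), and lower in iCKO, at -0.75 ± 0.21 (adjusted p = 0.019) and -1.15 ± 0.32 (adjusted p = 0.018). In iCKO 5 of 13 were higher, including the subunit Atp6v0a1 at 0.67 ± 0.14 (adjusted p = 0.0045), and 2 were lower, with a median of 0.14.

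Of 33 listed ionotropic glutamate receptor and auxiliary genes, 9 could be tested in mCKO against CTR1, where 1 was higher and 1 lower with the block and the median log2 fold change was 0.21. Grin2c, an NMDA receptor subunit of the cerebellum, had 2.54, 1.41 and 1.55 CPM in mCKO, against 0.880, 0.366 and 0.603 CPM in CTR1, without overlap. Its log2 fold change was 1.57 ± 0.31 (edgeR adjusted p = 0.0079 with the block and 0.33 without it), and -0.71 ± 0.35 in iCKO (adjusted p = 0.13). Gsg1l, an auxiliary subunit of AMPA receptors, was lower in mCKO at -0.56 ± 0.08 (adjusted p = 0.0016 with the block). In iCKO none of 10 was higher and 3 were lower, with a median of -0.44. These were the AMPA receptor binding proteins Pick1, at -0.84 ± 0.15 (adjusted p = 0.0022), and Grip2, at -1.32 ± 0.39 (adjusted p = 0.025), and the kainate receptor subunit Grik5, at -0.53 ± 0.16 (adjusted p = 0.025). The Grip2 call was lost without iCKO replicate 2 (-1.26), iCKO replicate 3 (-1.09) or CTR2 replicate 1 (-0.91), and the Grik5 call without iCKO replicate 2 or CTR2 replicate 1 (both -0.51) or CTR2 replicate 3 (-0.52). With library sizes alone both were lost, at -1.10 and -0.32, where 1 gene of the list was called.

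The calls with the block in mCKO were fewer without both replicate 3 libraries, with 4 libraries left. The kinase list then had 1 higher and 2 lower, the calcium list 0 higher and 1 lower, the glutamate receptor list 0 higher and 1 lower, and the exchanger and proton pump lists had 0 calls.

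**Figure D3:**
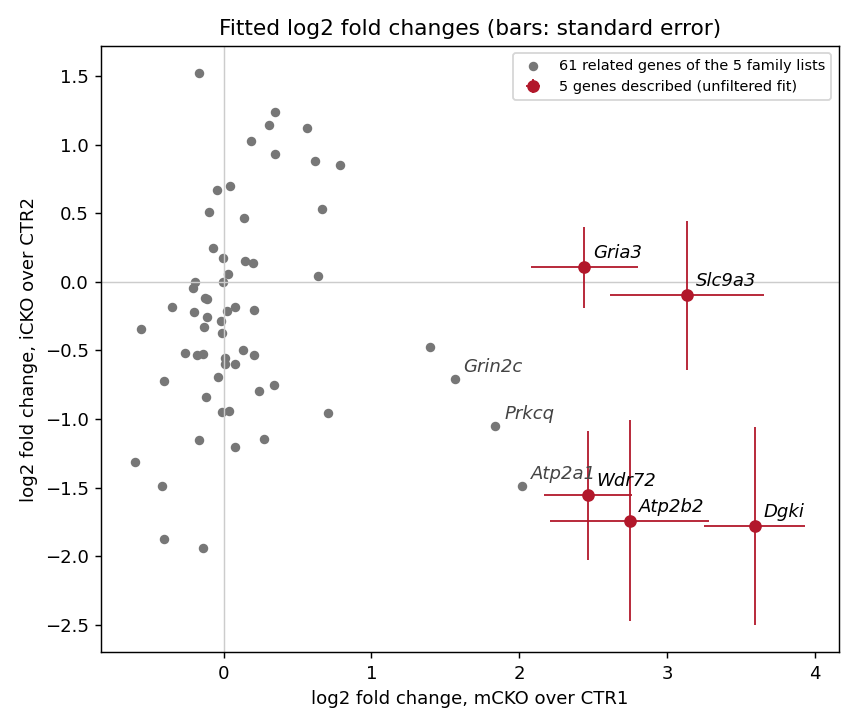
Fitted log2 fold changes of mCKO over CTR1 (horizontal) and iCKO over CTR2 (vertical) for the 5 genes (red, from the fit without a filter on low counts, bars are standard errors) and for 61 related genes tested in both (grey). The 5 genes lie to the right of the 61, of which Atp2a1, at 2.02, lies nearest, and Dgki, Atp2b2 and Wdr72 lie below 0 on the vertical axis.

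Markers of other cell types were measured in the same libraries. Summed CPM of 22 neuron markers was 28 to 64.7 in mCKO and 31.2 to 48.5 in CTR1, and of 10 Schwann and glial markers 41.7 to 45.2 in mCKO and 32.5 to 41.9 in CTR1. Summed CPM of 15 epithelial markers was 10.2 to 20.4 in mCKO and 8.83 to 14.4 in CTR1, and of 8 mesothelial markers 13.8 to 84.3 in mCKO and 9.19 to 42.2 in CTR1. For each of these lists but the Schwann and glial one, replicate 3 had the highest sum in its group, in mCKO and in CTR1. For the 5 genes replicate 3 was highest in mCKO only for Dgki. With the block, 1 of 11 tested neuron markers was higher and 1 lower, 0 of 7 Schwann and glial and 0 of 8 epithelial markers were called, and 3 of 7 mesothelial markers were higher and none lower. Of all genes, 7.32% were higher and 6.45% lower in that fit. Median log2 fold changes were 0.29 for the neuron, 0.46 for the Schwann and glial, 0.65 for the epithelial and 0.93 for the mesothelial list. With the block but without both replicate 3 libraries, 1 neuron marker was lower and 0 markers of these lists were higher. The medians of that fit were -0.12 for the neuron, 0.034 for the Schwann and glial, 0.99 for the epithelial and 0.61 for the mesothelial list. Without the block and without these libraries, 1 neuron marker was higher and 1 lower.

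The defining markers differed in level, from 0 counts to over 100 counts in a library, and only some of them are printed here. Rbfox3, a nuclear protein of mature neurons, had 0, 0 and 2 counts in mCKO, against 2, 1 and 1 in CTR1, and the neuronal RNA-binding protein gene Elavl4 had 3, 4 and 3 counts, against 1, 3 and 3. Cdh1, the cadherin of epithelial junctions, had 0, 0 and 7 counts in mCKO, against 0, 0 and 2 in CTR1. Grhl2, an epithelial transcription factor, had 128, 88 and 58 counts in mCKO, against 120, 102 and 64 in CTR1, and its log2 fold change was -0.18 ± 0.38 (edgeR adjusted p = 0.98). Keratin gene Krt8 averaged 1.07 CPM in mCKO and 0.725 CPM in CTR1, with a log2 fold change of 0.56 ± 1.04 without the block. Krt18 averaged 1.41 and 0.723 CPM, with 0.95 ± 0.93. The mesothelial markers called higher in mCKO with the block were Aldh1a2, Msln and Lrrn4. The neuronal gene Uchl1 was higher in mCKO by 0.64 ± 0.11 (edgeR adjusted p = 0.0038 with the block), and Dbh, of noradrenergic nerves, was lower at -1.25 ± 0.26 (adjusted p = 0.022 with the block).

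In iCKO the neuron, epithelial and mesothelial sums were above CTR2 without overlap, and the Schwann and glial sum overlapped it. The 5 genes were not above CTR2 there, but their choice drew on iCKO values. Neuron markers summed to 118 to 257 CPM in iCKO, against 27.4 to 28.5 CPM in CTR2, epithelial markers to 33.3 to 54.2 CPM, against 6.73 to 12.4 CPM, and mesothelial markers to 112 to 121 CPM, against 18.6 to 46.2 CPM. Schwann and glial markers summed to 19.3 to 35.8 CPM in iCKO, against 35.4 to 41.6 CPM in CTR2. A sum weighs the most abundant markers most, so a rise in it need not be shared by the list. Tubb3, a neuronal tubulin, had 398, 722 and 792 counts in iCKO, against 10, 6 and 4 in CTR2, a log2 fold change of 6.11 ± 0.41 (edgeR adjusted p = 6.1e-05). Tubb3 was the smaller part of the neuron sum in each iCKO library. Rbfox3 had 0, 1 and 1 counts in iCKO, against 0, 0 and 2 in CTR2. The keratin genes Krt18 and Krt8 were higher in iCKO, by 4.18 ± 0.20 (adjusted p = 1.4e-05) and 4.03 ± 0.43 (adjusted p = 0.00028), and Cdh1 by 4.95 ± 0.81 (adjusted p = 0.0017), while Grhl2 was lower, at -3.55 ± 0.66 (adjusted p = 0.0032). In all, 4 of 9 tested neuron markers were higher and 1 lower in iCKO (median log2 fold change 1.31), 4 of 8 epithelial markers were higher and 1 lower (1.46), 1 of 8 mesothelial markers was higher and none lower (0.11), and none of 6 Schwann and glial markers was higher and 1 lower (-0.43). Of all genes tested in iCKO, 25.2% were higher and 19.5% lower. The part of other cells in the levels of the 5 genes was not tested.

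Cardiomyocyte markers were abundant in every library, with sums of 58385 to 89923 CPM in mCKO, against 68137 to 101714 CPM in CTR1. They summed to 48701 to 58416 CPM in iCKO, against 84084 to 96134 CPM in CTR2. None of 10 was higher and 5 were lower in mCKO with the block (median log2 fold change -0.29), where 7.32% and 6.45% of all genes were. With the block but without both replicate 3 libraries, 2 were lower. In iCKO 1 was higher and 6 were lower (median -0.75), where 25.2% and 19.5% of all genes were. In bulk RNA, fewer cells of a type and less RNA per cell cannot be told apart.

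**Figure D4:**
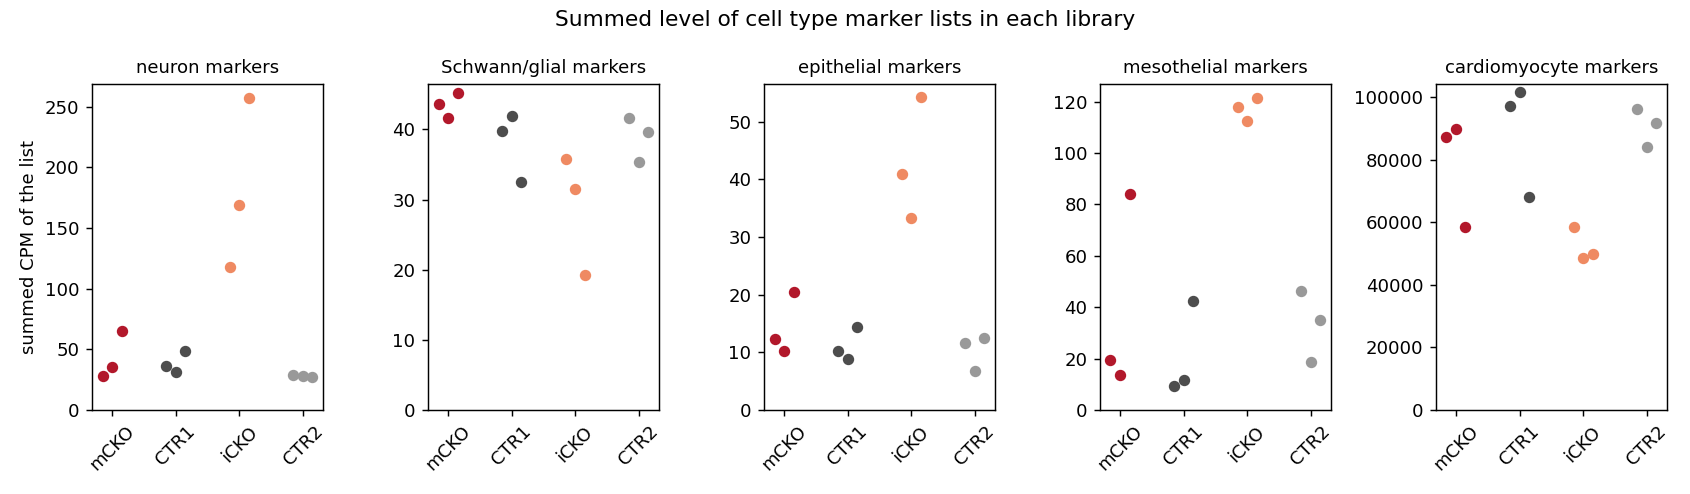
Summed CPM of 5 cell type marker lists in each library, on linear axes. The neuron and epithelial sums overlap between mCKO and CTR1 and are highest in iCKO, for example 118 to 257 CPM of neuron markers in iCKO against 27.4 to 28.5 CPM in CTR2.

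Genes whose level followed the 5 most closely across the 12 libraries were picked by Pearson's r of log2 CPM among 13201 candidates, as a description, since the libraries share groups. For Dgki these were Fads6 (r = 0.94), Klhdc7a (0.94) and Cacna1h (0.92), and for Wdr72 Cacna1h (0.98), Sertm1 (0.96) and Mfsd4a (0.94). For Atp2b2 they were Ttc39a (0.96), Sertm1 (0.96) and Cacna1h (0.92), for Slc9a3 Ttc39a (0.92), Camsap3 (0.89) and Trub2 (0.89), and for Gria3 Exoc4 (0.93), Ripk4 (0.92) and Cdcp3 (0.92). Cacna1h, which encodes a T-type calcium channel, was named for 3 of the 5 genes. It had 129, 121 and 76.4 CPM in mCKO, against 29.1, 30.5 and 30.4 CPM in CTR1, and 19.5, 21.0 and 11 CPM in iCKO, against 29.7, 26.9 and 28.6 CPM in CTR2. Like Wdr72 it lay above its control in mCKO and below it in iCKO without overlap, and so did Fads6 and Mfsd4a. These genes were picked for following the 5, so this likeness is no separate result. Klhdc7a, at 54.8 ± 8.86 CPM in mCKO and 13.2 ± 3.56 CPM in CTR1, and Exoc4, at 105 ± 13.9 CPM in mCKO and 62.9 ± 9.95 CPM in CTR1, overlapped between iCKO and CTR2.

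Among the 5 genes themselves, the correlation over the 12 libraries ran from 0.73 (Dgki with Slc9a3) to 0.94 (Atp2b2 with Wdr72). Within the 6 iCKO and CTR2 libraries it ran from -0.46 (Dgki with Slc9a3) to 0.84 (Atp2b2 with Wdr72). All these values are descriptive, and the first set is shaped by the gap between mCKO and the other groups.

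Other genes were low in CTR1 and present in mCKO. There were 303 genes tested with a mean below 1 CPM in CTR1 and at least 1 CPM in mCKO, of which 16 were at least 4 times as high in mCKO, and Dgki and Wdr72 were 2 of these. The 10 others with the highest log2 fold changes were Ano3, Lif, Megf11, Cstad, Ripk4, Phgdh, Rasgef1a, Cdcp3, Clec2l and Lman1l, with 3.11 ± 0.36 for Ano3, between the values of Dgki and Wdr72, down to 2.06 ± 0.71 for Lman1l. Their values in iCKO differed. Log2 fold changes against CTR2 were 5.40 ± 0.42 for Lif, 3.91 ± 0.55 for Ano3, 3.79 ± 0.52 for Lman1l and 3.36 ± 0.54 for Cstad. They were 1.59 ± 0.34 for Rasgef1a, 1.38 ± 0.69 for Megf11 and 1.29 ± 0.28 for Phgdh. Ripk4 had -0.08 ± 0.48 and Cdcp3 -0.04 ± 0.43, and Clec2l failed the filter on low counts there. Lif, a cytokine of the interleukin-6 family, averaged 1.93 CPM in mCKO and 0.342 CPM in CTR1, and 16.9 CPM in iCKO and 0.398 CPM in CTR2. Ano3 averaged 2.30 CPM in mCKO and 0.262 CPM in CTR1, and 2.82 CPM in iCKO and 0.185 CPM in CTR2. Ripk4, by contrast, averaged 1.37 CPM in mCKO and 0.298 CPM in CTR1, and 0.421 CPM in iCKO and 0.445 CPM in CTR2. Cdcp3 and Clec2l resembled Ripk4, with 0.495 and 0.274 CPM in iCKO, against 0.510 and 0.377 CPM in CTR2.

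The nearest tested gene on either side of each of the 5 was measured as well, at 46 bases to 2766 kb. Of the 10 neighbours tested in mCKO, edgeR called 0 in mCKO against CTR1 without the block and 1 with it. The shares over all genes were 0% and 13.8%. The neighbour called was Fam214a at 669.576 kb from Wdr72, which was lower (-0.30 ± 0.08, edgeR adjusted p = 0.034). Exoc3 lies 46 bases from Slc9a3 and had a log2 fold change of -0.02 ± 0.14 in mCKO against CTR1 and -0.08 ± 0.14 in iCKO against CTR2. In iCKO Unc13c, too low to be tested in mCKO, was the nearest tested gene on the lower side of Wdr72, at 141.39 kb. There 5 of the 10 nearest were called, near the share of 44.8% over all genes. Unc13c, a synaptic vesicle priming gene, averaged 1.94 ± 1.13 CPM in iCKO and 0.116 ± 0.079 CPM in CTR2 and was higher by 4.01 ± 0.66 (edgeR adjusted p = 0.0018), while Wdr72 itself was lower there. The others were Creb3l2 near Dgki, Sec13 near Atp2b2 and C1galt1c1 on the side of Gria3 higher, at 0.94 ± 0.25 (adjusted p = 0.015), 0.73 ± 0.19 (adjusted p = 0.013) and 0.71 ± 0.16 (adjusted p = 0.0076), and Fam214a lower, at -1.87 ± 0.35 (adjusted p = 0.0034).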

How the data were processed

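RNA from left ventricle was extracted with Trizol and sequenced with a TruSeq stranded mRNA kit, per the labels' protocols. The submitters' processing notes name HISAT2, DESeq and GRCm38. How strand was treated, the annotation and the counting tool: not given in the sources used here. Raw counts per gene were deposited, 1 table for mCKO and CTR1 (17260 genes) and 1 for iCKO and CTR2 (17325 genes).

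From these counts edgeR 4.0.16 in R 4.3.3 computed TMM-scaled CPM, log2 CPM (prior count 2) and quasi-likelihood fits (robust, filterByExpr with minimum count 10 and minimum total 15, two-sided, Benjamini-Hochberg over all genes tested, called at 0.05), with limma 3.58.1 loaded. Each experiment was fitted alone, and the difference of effects over all 12 libraries and the 16673 genes in both tables. The fits were also run on simulated counts with known changes, and the outcome is not given here. Those counts held no shift shared by replicate 3, so they did not check the block against such a shift. Values after ± are standard errors for fold changes and SDs for levels. CPM per kb uses the union of GENCODE M21 exons, and start-site windows come from RefSeq.

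The 5 genes and all gene lists were chosen with earlier results of these data known. Named list genes were up to 4 called per list and comparison with the smallest adjusted p (calls with the block for mCKO), or, with fewer than 2 calls, the 2 with the highest level, and not every gene the rule gives is printed. It also named Ddx5, the 3 genes most correlated with each of the 5 and the 10 other genes with the largest fold change among those below 1 CPM in CTR1 and at least 1 CPM in mCKO. Neighbouring genes were added after seeing the data. Some exchanger genes are not reported here.

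The pairing by number was checked. Deviations from the group means correlated between same-numbered mCKO and CTR1 libraries (r = 0.464, 0.532 and 0.823), each above the limit of 0.1, so block values stand beside results in that experiment. Crossed pairs of replicates 1 and 2 correlated as highly (0.553 and 0.529), so only replicate 3 is told apart by its number. Deviations within a group cancel, so an outlying replicate 3 in both groups can alone make all same-numbered values positive. In iCKO and CTR2 same-numbered libraries did not correlate (0.0583, -0.0896 and -0.161). No pair of libraries in a group agreed within sampling noise (lowest chi-square per degree of freedom 6.49). Alternatives were DESeq2 1.42.0, its size factors, library sizes alone, no filter, the block, a prior count of 0.5 and leaving out libraries.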

Additional observations from a re-analysis of the deposited data

Results flagged for a closer look

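For 14 of the related genes or markers named above, the effect of the knockout differed between mCKO and iCKO by edgeR's test of the difference. Values are log2 of the mCKO effect minus the iCKO effect, and p-values were adjusted over all genes tested. Other genes of the lists were called too and are not printed here. Of all 13871 genes tested, 20.8% were called. Most of the 14 were named for calls in mCKO or iCKO, the effects the difference is built from. Atp2a1 was named after its values were seen. The choice thus favoured calls among them, and their number is not to be read against that share. No cause of these differences was tested.

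The difference was positive for Atp2a1 (3.55 ± 0.72, adjusted p = 0.0055), Grhl2 (3.41 ± 0.80, adjusted p = 0.012), Prkcq (2.93 ± 0.35, adjusted p = 0.00026) and Grin2c (2.32 ± 0.56, adjusted p = 0.013). It was also positive for Pln (1.84 ± 0.16, adjusted p = 5.4e-05), Atp2a2 (1.51 ± 0.29, adjusted p = 0.0037), Dmxl2 (1.47 ± 0.38, adjusted p = 0.018), Rogdi (1.13 ± 0.24, adjusted p = 0.0075), Dgke (1.12 ± 0.31, adjusted p = 0.026) and Bsg (1.02 ± 0.19, adjusted p = 0.0037).

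The difference was negative for Tubb3 (-5.33 ± 0.72, adjusted p = 0.00056), Krt18 (-3.19 ± 0.91, adjusted p = 0.028), Uchl1 (-3.01 ± 0.43, adjusted p = 0.00073) and Atp6v0a1 (-0.68 ± 0.18, adjusted p = 0.020).

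Some of these calls were lost when 1 library was left out. The Krt18 difference was -1.97 without CTR1 replicate 3 (adjusted p = 0.18), and its call was also lost without mCKO replicate 1 (-2.97) or CTR2 replicate 1 (-3.29), 2 (-3.18) or 3 (-3.26). The Dmxl2 call was lost without mCKO replicate 2 (1.39), CTR1 replicate 2 (1.34) or 3 (1.31) or CTR2 replicate 3 (1.32), and the Atp6v0a1 call without mCKO replicate 1 (-0.65). The Dgke call was lost without mCKO replicate 1 (1.08) or 2 (1.0), CTR1 replicate 1 (1.14), 2 (1.12) or 3 (0.92), iCKO replicate 2 (1.07) or CTR2 replicate 2 (1.07) or 3 (0.92), and with library sizes alone (0.93).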

How the results depend on the processing

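The fold changes of the 5 genes in mCKO against CTR1 were positive under each of the 15 settings run, and among the alternatives for all comparisons 202 values lay within the spread between replicates and 1 did not, the Dgki difference without CTR2 replicate 2 (4.64). The number of genes called in mCKO against CTR1 was 0, and moved to 4 without the filter on low counts, 1839 with the replicate block, 310 with DESeq2, 1040 without both replicate 3 libraries and between 0 and 1 when 1 library was left out. In settings added after seeing the data it was 2055 with the replicate block and library sizes only and 388 with the replicate block without both replicate 3 libraries; the causes were not tested. Leaving out 1 library moved the log2 fold change in mCKO of Slc9a3r2 between -0.33 and 0.44 and that of Grhl2 between -0.47 and 0.0902, with the sign of Slc9a3r2 turned in 3 of the 6 cases and that of Grhl2 in 2. In iCKO against CTR2 the replicate block gave 5491 calls, against 6068 without it, and it changed the call of 1 named result there (Grik5, -0.53, adjusted p = 0.067) and moved the mesothelial markers called to 2 and the calcium list to 5 lower, against 6. Over 56 results on Ddx5, related genes and markers, 684 alternative values kept direction and call, 34 lost the call, 52 gained it and 5 changed sign. Over 30 list counts, 84 alternative counts were within 1.5 times and 46 were not, most of them in mCKO, where the count without the block was 0. In iCKO DESeq2 called 10 of the kinase list, against 6, and library sizes alone 1 of the glutamate receptor list, against 3. In mCKO DESeq2 called 2 of the kinase, 1 of the calcium, 1 of the neuron and 2 of the cardiomyocyte list, and without both replicate 3 libraries edgeR called 4, 2, 2 and 4 of these and 1 of the glutamate receptor list. Counts of under about 20 in iCKO limit the precision for Dgki, Atp2b2 and Wdr72.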
